A study of Arabidopsis thaliana with 18 samples.

Results

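A group of 150 probe sets shared a high signal in 3 of the 18 Affymetrix ATH1 arrays hybridised with RNA of the Arabidopsis thaliana accession Cvi-1. Arrays are named by the serial number in their titles. The 150 were chosen on 6 arrays: they had the largest mean log2 signal in arrays 20, 28 and 30 minus the mean in arrays 19, 21 and 29. Candidates were the 13657 probe sets, of 22746 that are not controls, whose mean log2 signal over all arrays was at least 4.31. A list of 16 candidates was left out before the choice, 7 of which would otherwise have ranked among the first 150. The remaining 12 arrays, 22 to 27 and 31 to 36, played no part in the difference that ranked the members, although their level entered the filter.

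Per the labels, all plants were Cvi-1, arrays 19 to 27 came from plants given the surfactant silwet at 0.02%, and arrays 28 to 36 from plants given 0.30 mM salicylic acid (SA) in silwet at the same strength. Each treatment holds the replicate numbers 1, 2 and 3 in each of 3 runs of consecutive serials, namely 19 to 21, 22 to 24 and 25 to 27 for silwet, and 28 to 30, 31 to 33 and 34 to 36 for SA. The high arrays are therefore silwet replicate 2 (20), SA replicate 1 (28) and SA replicate 3 (30), and the low arrays are silwet replicates 1 (19) and 3 (21) and SA replicate 2 (29). The titles hold a further number, unexplained, whose values for the 3 replicate numbers lie apart from each other in both treatments. The sources used here do not say what tissue was taken, when it was harvested or how the serial runs differ. Nothing says that the arrays come from separate plants, so the p-values below rest on a spread between arrays that could be technical. In such bulk RNA, fewer cells of a type and less RNA per cell cannot be told apart. The probes of this array were designed on the Columbia accession, and a sequence difference in Cvi-1 can lower a probe set's signal in every array.

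Salicylic acid is the plant hormone best known for defence against pathogens that feed on living cells. Its perception through NPR proteins turns on secreted antimicrobial proteins, enzymes that attach sugars to small molecules, receptor-like kinases, and the synthesis of the systemic signal N-hydroxypipecolic acid. Many of the same genes also answer to wounding, handling and other stress, often through calcium signals.

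The difference by which the members were chosen ranged from 1.76 (3.38-fold) to 5.04 (32.8-fold) on the log2 scale, with a median of 2.08 (4.24-fold). It was past 4-fold in 88 members, past 8-fold in 9 and past 16-fold in 4. In the candidate pool 5.53% was higher by over 2-fold, a limit that every member passed. The pool's shares past the larger folds were not computed. These sizes follow from the choice and carry no test. Just inside the limit lay AT3G13950 (1.76), AT3G60420 (1.76) and a probe set without a gene name (1.76). Just outside it lay AT1G78410 (1.75), AT5G57500 (1.75) and another without a gene name (1.75), so the limit separates near-equal values.

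**Figure D1:**
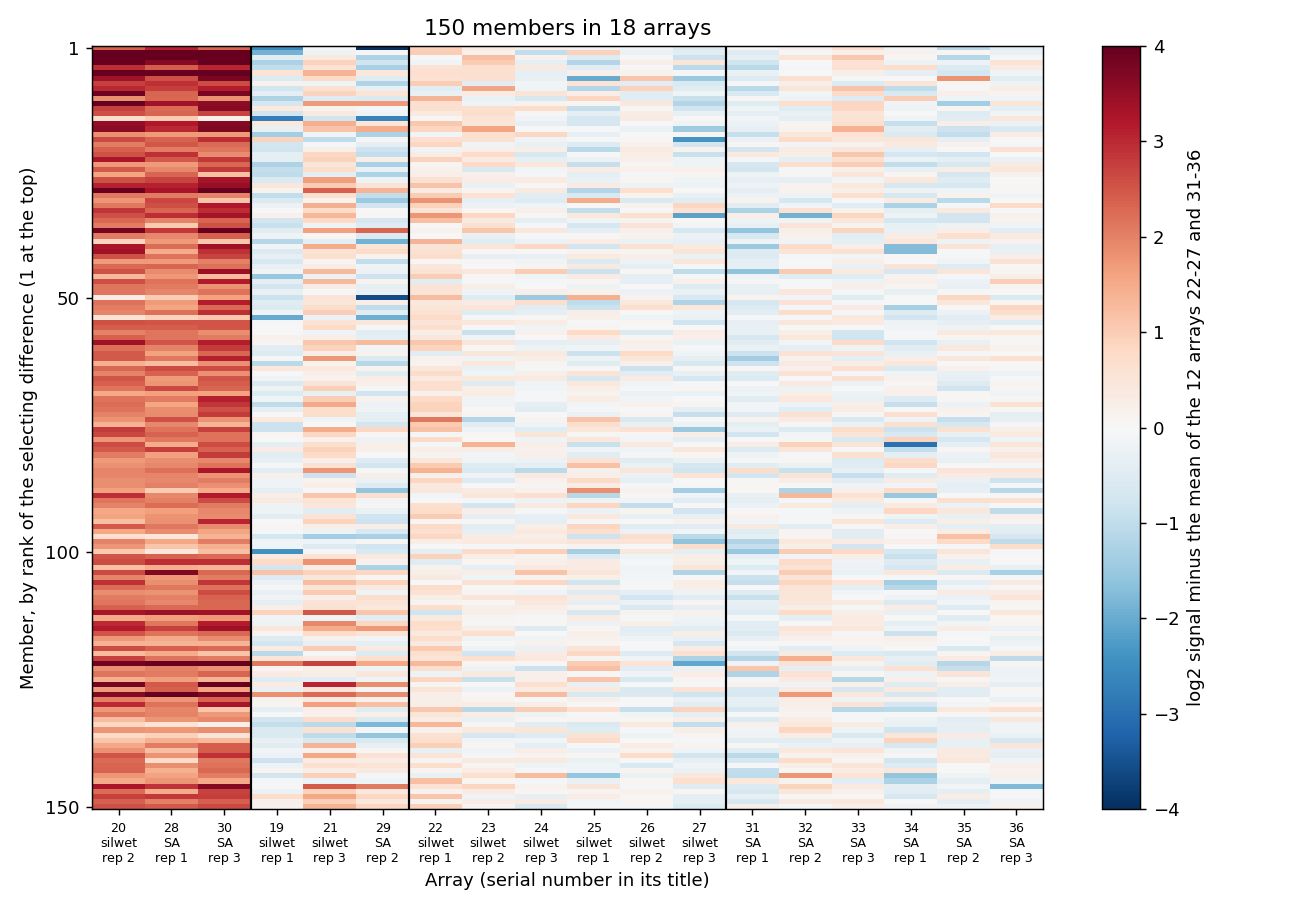
Log2 signal of each of the 150 members (one line each, ordered by the difference that chose them) minus its mean over the 12 arrays outside the choice, in each of the 18 arrays grouped as high, low and other arrays. Arrays 20, 28 and 30 form a block above the rest, and array 21 is above its 2 companions 19 and 29 in many members.

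The content of the group could be read for fewer members than for the array as a whole. The annotation used here paired 61 members with 1 gene (40.7%, against 53.8% of the tested probe sets), 1 with several and 88 with none. Of the 61, 60 were protein-coding and 1, AT3G48650, was listed as a pseudogene. The genes are grouped below by their known function, and this grouping was made after their values were seen. Members without a gene name are given by their rank in the choosing difference, from 1 to 150. Signals are the deposited intensities.

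AT3G13610 had rank 1 in the choosing difference. It encodes F6'H1, the feruloyl-CoA 6'-hydroxylase that makes the precursor of the coumarin scopoletin. Its signal was 236, 372.7 and 225 in arrays 20, 28 and 30, and 7.50, 42.5 and 1.74 in arrays 19, 21 and 29. In the 6 other silwet arrays it ran from 29.0 to 85.5 with a median of 46.3, and in the 6 other SA arrays from 20.1 to 69.4 with a median of 42.6. Arrays 19 and 29 were thus below all 12 other arrays for this gene, and array 21 lay within the 12. Its rank and its 32.8-fold rest on those signals of 7.50 and 1.74, which are in the range under 16 where MAS5 values are least precise. Against its mean over the 12 arrays the high arrays were higher by 2.63 log2 units, less than in the members of ranks 2, 3, 4 and 6 (4.04 to 4.34).

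UGT73D1, a UDP-glycosyltransferase, had signals of 146, 187 and 91.6 in the high arrays and 19.4, 44.4 and 12.6 in the low ones. Its other silwet arrays spanned 13.3 to 42.0 (median 27.2) and its other SA arrays 14.7 to 52.4 (median 27.2). Both treatments overlapped fully outside the 3 high arrays, and the low arrays were not set apart from them except for array 29, which was the lowest of all. CXE20, a carboxylesterase, read 108, 88.7 and 133 in the high arrays, 32.0, 8.59 and 18.0 in the low arrays, 3.27 to 27.6 (median 17.7) in the other silwet arrays and 13.8 to 30.2 (median 20.3) in the other SA arrays. AT1G60730, an aldo-keto reductase, read 130, 162 and 161, against 35.3, 36.0 and 29.4, with 14.8 to 36.8 and 17.6 to 42.6 in the other silwet and SA arrays.

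AT5G52810 encodes the reductase that completes the synthesis of pipecolic acid, the precursor of the systemic resistance signal. Its signal was 861, 766 and 879 in the high arrays and 162, 199 and 160 in the low arrays. The other silwet arrays gave 163 to 282 (median 201) and the other SA arrays 156 to 272 (median 190). The 3 high arrays were close together and no other array exceeded 282.

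Further enzymes had a wider spread outside the high arrays. AT5G38710, a proline dehydrogenase of the mitochondrion, read 267, 132 and 291, against 25.6, 78.5 and 39.4 in the low arrays, 16.4 to 49.4 (median 39.4) in the other silwet arrays and 8.37 to 47.3 (median 27.7) in the other SA arrays. AT4G39830, an ascorbate oxidase-like protein of the cell wall, read 198, 271 and 421, against 38.5, 125 and 27.0, with 39.0 to 86.7 and 18.9 to 77.2 in the others. For both genes array 21 lay above all 12 of the other arrays. SUFE2, which activates cysteine desulfurase in iron-sulfur cluster assembly, read 597, 496 and 480, against 126, 136 and 85.4, with medians of 125 and 113 in the other silwet and SA arrays and no value above 155 among them.

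AT3G47480, an EF-hand calcium-binding protein, had signals of 527, 505 and 414 in the high arrays, 71.5, 144 and 91.5 in the low arrays, 82.3 to 177 (median 120) in the other silwet arrays and 95.6 to 142 (median 124) in the other SA arrays. The 15 arrays outside the high ones overlapped, with no separation by treatment. AT5G44570 was among the brightest named members, with 1187, 1018 and 1320 in the high arrays, 89.7, 227 and 122 in the low arrays, 66.3 to 439 (median 121) in the other silwet arrays and 70.9 to 324 (median 161) in the other SA arrays. AT1G57650 read 157, 176 and 263, against 18.1, 86.1 and 23.2, with 22.3 to 40.7 and 19.2 to 35.7 in the others. In that gene array 21 stood between the high arrays and all the rest.

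**Figure D2:**
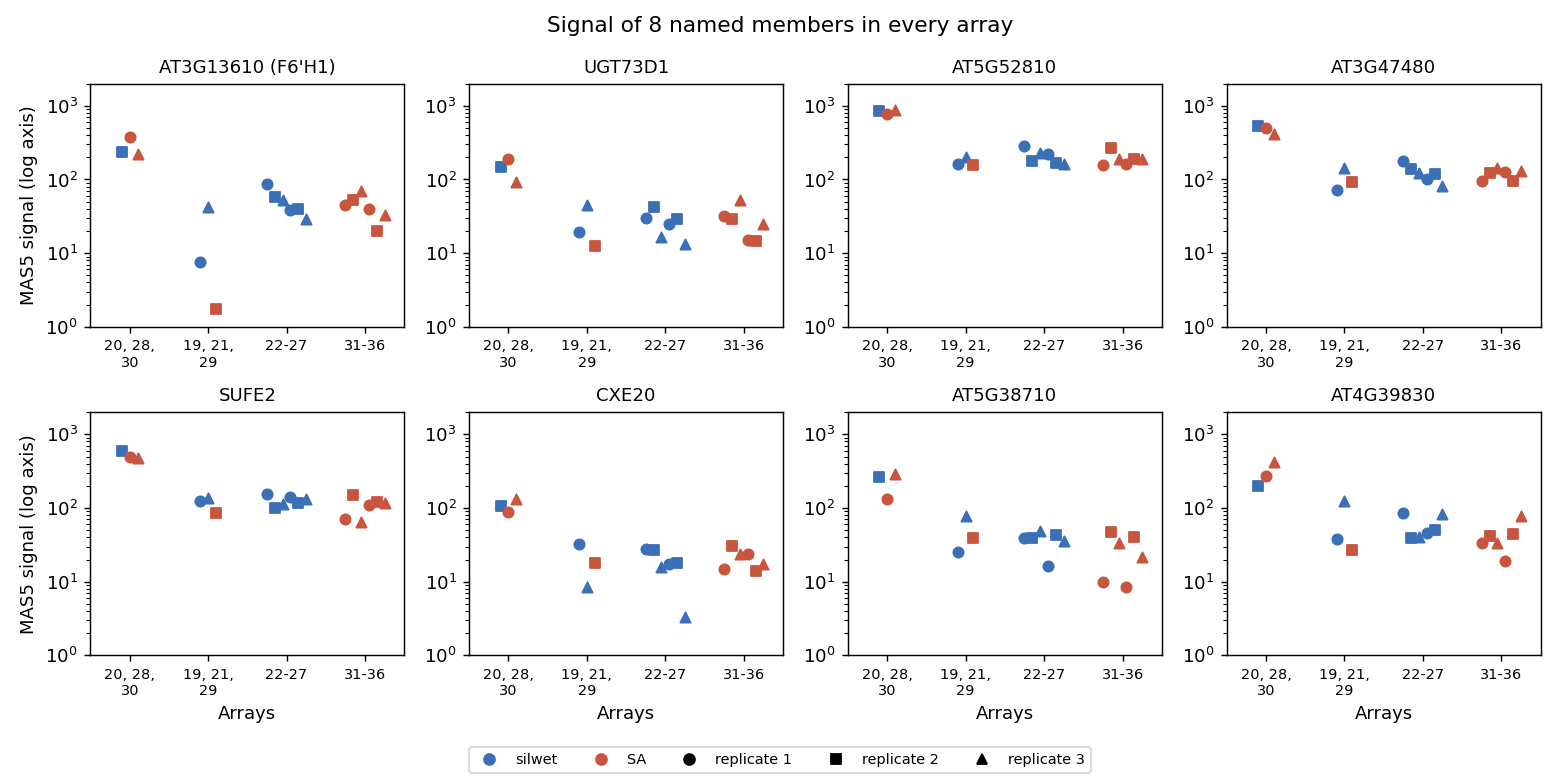
Signal (deposited intensity, log axis) of 8 members in the 3 high arrays, the 3 low arrays, the 6 other silwet arrays and the 6 other SA arrays, 1 point per array, coloured by treatment and shaped by replicate number. In each panel the high arrays lie above all other points, and the other silwet and SA arrays overlap.

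Of the 24 highest named members, those not yet described are summarised next. AT4G01870 was the brightest of them, at 1021, 712 and 1087 in the high arrays and at most 234 elsewhere. AT4G32870, a polyketide cyclase and lipid transport family protein, read 430, 391 and 533 in the high arrays and at most 159 elsewhere. AT2G39400, an alpha/beta hydrolase, read 341.4, 254 and 508 and at most 139 elsewhere, this value being that of array 21. In all 3 the high arrays were clear of the rest. AT5G46230 came close to an overlap, with 204, 281 and 201 in the high arrays and 147 in array 22. AT1G08050 read 198, 159 and 219 against at most 47.0, and AT1G52950 read 182, 180 and 269 against at most 109. AT4G19370 (120, 94.3 and 101), AT4G30230 (66.9, 112 and 52.0), AT5G62770 (134, 131 and 164), AT2G44010 (124, 88.8 and 243), the pseudogene AT3G48650 (106, 126 and 213), AT3G62780 (156, 173 and 142) and AT2G37750 (188, 165 and 247) completed the 24, each with all 3 high arrays above the other 15.

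Further members with a gene name were chosen for description after their values were seen. AT3G09010, a protein kinase, read 355, 230 and 360 in the high arrays and at most 109 elsewhere. AT4G18250, a receptor-like kinase with a thaumatin domain, read 153, 124 and 107 and at most 42.3 elsewhere. AT1G11330, an S-locus lectin receptor kinase, read 237, 274 and 221 but reached 192 in another silwet array, so its margin was small. AT2G32140, a TIR-domain protein, read 134, 86.7 and 128 and at most 54.2 elsewhere. AT3G48080, a lipase-like protein of the EDS1 family, read 171, 200 and 155 and reached 126 elsewhere. AT3G47540, of the chitinase family, read 574, 326 and 572 and at most 155 elsewhere. Each of these had its 3 high arrays above the other 15.

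AT4G27280, another EF-hand calcium-binding protein, read 270, 318 and 675 in the high arrays and 238 in array 21, above the 182 reached by the other 12 arrays. AT5G67340, a U-box protein, read 225, 166 and 375 and at most 93.0 elsewhere, again in array 21. Hsp70-2, a chaperone, read 856, 760 and 718 and at most 284 elsewhere. The ankyrin-repeat proteins AT4G03450 and AT1G10340 read 411, 350 and 461, and 166, 236 and 305, with other arrays up to 135 and 147 respectively, both maxima again in array 21.

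GH3.3, which joins auxin to amino acids, read 207, 95.6 and 206 in the high arrays, 26.6, 53.2 and 39.9 in the low arrays, 18.5 to 89.2 (median 37.6) in the other silwet arrays and 4.26 to 64.7 (median 44.8) in the other SA arrays. Its lowest high array, 28, stood just above its highest other array. AT5G24210, a class 3 lipase, was bright throughout, at 1845, 1844 and 1622 in the high arrays and 250 to 693 in the other 12. AT5G51830, a fructokinase, read 567, 552 and 645 against at most 195, and AT2G39210, a transporter of the major facilitator family, read 663, 815 and 619 against at most 227.

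Probe sets without a gene in the annotation held several of the largest values. The member of rank 2 read 311, 268 and 211 in the high arrays and 3.57, 11.6 and 13.7 in the low ones, with 6.78 to 26.4 (median 13.2) in the other silwet arrays and 9.33 to 15.3 (median 13.3) in the other SA arrays. The member of rank 3 read 1055, 907 and 890 against 34.4, 60.7 and 19.9, and that of rank 4 read 1232, 810 and 1234 against 27.3, 125 and 38.0. In the other 12 arrays those 2 stayed between 21.2 and 108, and between 29.3 and 131. These 3 and AT3G13610 are the members past 16-fold. In each of the 4 the lowest high array was above every other array.

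Few genes of known pathways could be examined with the lists used here. No gene was tested in 5 of the 16 lists and in 7 of 17 gene families. Protein kinases and TIR-domain proteins were among those families, so the members described above as such were not counted. These families were searched by product terms among gene synonyms, which found no tested gene. For most listed genes, absence from the group is a limit of the annotation, and for fewer of the filter. Listed genes that were tested and are not members ranked below the limit or were left out. The 16 lists hold 215 genes, of which 37 were paired with a probe set and 29 passed the filter, and 1 list held a member. It was the calcium and touch list, with AT3G47480 as 1 of 3 tested genes and a median difference in the choosing arrays of 0.56. Among 24 tested UDP-glycosyltransferases 2 were higher by over 2-fold. They were UGT73D1, the 1 member, and a gene among the candidates left out. The family's median difference was -0.03. Both tested SA-responsive genes were past 2-fold but were among the candidates left out. The 7 tested genes of folding in the endoplasmic reticulum had a median of 0.56 with 0 past 2-fold, the 4 of pattern-triggered immunity 0.82 with 1 past 2-fold, the 3 of photosynthesis -0.29 and the 3 of abscisic acid and cold -0.46. The median over all tested probe sets was -0.11. No root, flower or seed marker was tested. Beyond the 3 photosynthesis genes these lists held no tested marker of a tissue, and a different share of tissue was not tested.

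Against all other arrays the 3 high ones stood as follows. All 3 were above the other 15 arrays in 137 of 150 members, against 10.6% of all tested probe sets, and above the other 12 in 138, against 12.8%. Since the high arrays chose the members, these counts are a description. Array 30 was the highest of the 3 in 79 members, array 20 in 36 and array 28 in 35. The median member lay 2.20 log2 units (4.59-fold) above its mean over the 12 arrays in the high arrays, by array 2.19 in array 20, 2.05 in array 28 and 2.33 in array 30.

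The 3 low arrays, which the choice also used and which are described without a test, were not a uniform low group. The median member stood 0.06 log2 units above its mean over the 12 arrays, and 69 of 150 members were below it. By array, the median was -0.26 in array 19, -0.11 in array 29 and 0.54 in array 21. Array 21 was above all 12 other arrays in 50 members (12.8% of the tested probe sets), array 29 in 16 (9.97%) and array 19 in 6 (8.66%). Array 19 was below all 12 in 33 members (7.92% of the tested probe sets), array 29 in 30 (11.8%) and array 21 in 5 (12.1%). All 3 low arrays were above the 12 in 3 members (1.68% of the tested probe sets) and below them in 2 (1.73%). Of the 3, AT1G49000, named after its values were seen, read 58.4, 89.0 and 39.1 in arrays 19, 21 and 29, 3.17 to 33.0 in the other silwet arrays and 6.17 to 20.2 in the other SA arrays.

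In 13 members at least 1 of the other 15 arrays reached the high ones. AT5G55450, a lipid transfer protein-like gene and the 1 of the 13 with a gene name, read 1467, 1638 and 1244 in the high arrays, 576, 428 and 287 in the low arrays, 529 to 1328 (median 836) in the other silwet arrays and 570 to 1201 (median 911) in the other SA arrays. Arrays 22 and 25 exceeded array 30 there, and arrays 21 and 29 lay below all of the other 12. The member of rank 15 read 2355, 2976 and 1690 in the high arrays, 218, 872 and 229 in the low arrays, 895 to 2117 in the other silwet arrays and 1058 to 2164 in the other SA arrays. Arrays 19, 21 and 29 were below all of the other 12 for it, and array 30 lay within their range.

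**Figure D3:**
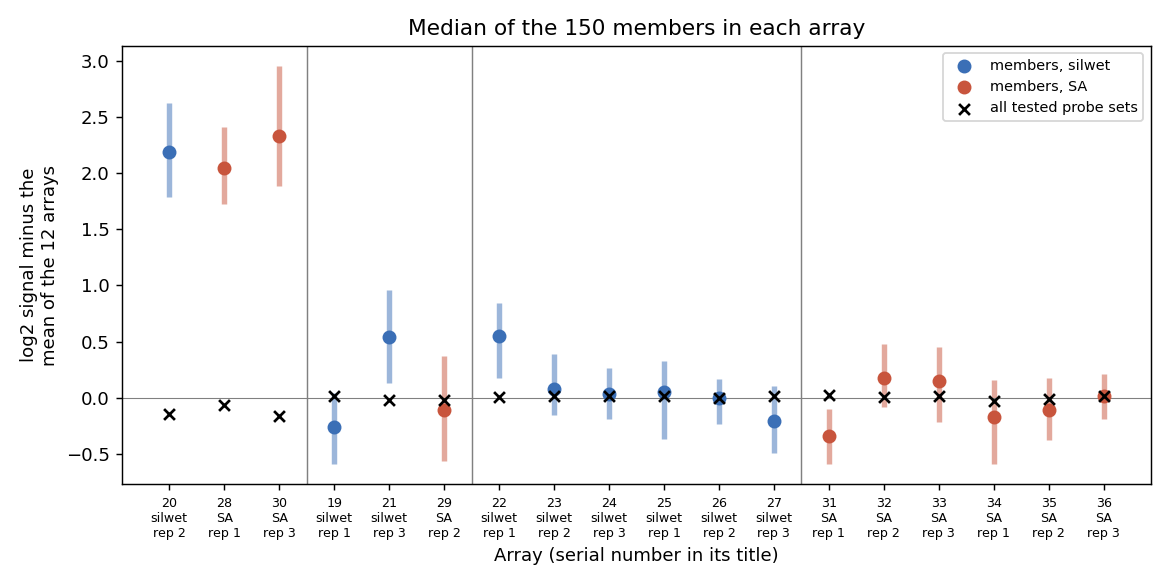
Median over the 150 members, and over all tested probe sets, of log2 signal minus its mean over the 12 arrays outside the choice, for each of the 18 arrays. The members' median is 2.05 to 2.33 in the 3 high arrays, 0.54 in array 21, 0.55 in array 22 and between -0.34 and 0.18 in the remaining ones.

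Properties of the arrays themselves give the setting. In the high arrays the median of all tested probe sets lay between -0.17 and -0.06 log2 units from its mean over the 12 arrays, and in the other 15 arrays it lay between -0.03 and 0.03. Ratios of 3' to 5' control probe sets were 0.997 to 1.29 for actin in the high arrays and 0.577 to 1.19 in the other 15, and 2.30 to 2.74 for ubiquitin against 2.54 to 3.71. For GAPDH they were 1.003 to 1.16 against 0.879 to 1.31. Signals under 16 made up 37.5% to 38.4% of probe sets, against 33.6% to 38.8%. The part of these measures in the members' levels was not tested.

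Among the 12 arrays that played no part in the choosing difference, the members were more variable than most probe sets. Their SD over these arrays had a median of 0.47 log2 units (0.20 to 1.13), against 0.26 for all tested probe sets, and 143 of 150 were above that median. Their level was lower, with a median mean log2 signal of 5.83 against 6.51. With only these arrays counted, 19 members were under the threshold of 4.31, so they passed the filter through the arrays of the choice. Low signals are the least precise. The SDs were compared neither at matched level nor without these 19, so the part of level in them was not tested. The largest SDs were those of the member of rank 34 (1.13), GH3.3 (1.11) and the members of ranks 7 (1.07) and 144 (1.04).

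The members also moved together to a limited extent in these arrays. Pearson's r between pairs of members over the 12 arrays had a median of 0.23 (quartiles -0.02 and 0.46, 11175 pairs), and over all tested probe sets it had a median of 0.00 (quartiles -0.29 and 0.30). The points share the same 12 arrays, so this is a description. The 19 members under the filter's threshold in these arrays were not left out of it. AT3G54150, a methyltransferase, followed the members' median most closely (r = 0.88), before AT5G52810 (0.82), AT3G47480 (0.80) and 3 members without a gene name, of ranks 56 (0.86), 28 (0.83) and 59 (0.79). In 69 members r with the members' median was above 0.5 and in 4 it was below 0. That median includes each member itself. The share over all tested probe sets was not computed, and r was not computed again with an array left out. AT3G54150 read 293, 159 and 325 in the high arrays, 32.4, 140 and 67.1 in the low arrays, 31.3 to 61.7 (median 37.01) in the other silwet arrays and 27.0 to 46.3 (median 35.5) in the other SA arrays. Array 21 was therefore near the lowest of the high arrays for this gene. Among the 12, array 22 had the highest median over members (0.55) and array 31 the lowest (-0.34), and both are replicate 1.

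SA against silwet was compared in the 12 arrays, 6 against 6, to ask whether the members answered to the treatment where they had not been chosen. No member passed limma's test after Benjamini-Hochberg adjustment, and neither did any of the 13657 probe sets (0%). The count of members at an unadjusted limma p under 0.05 depended on the setting. It was between 0 and 6 with single arrays left out, 5 without replicate 1 (357 probe sets) and 11 without replicate 2 (347). Without replicate 3 it was 10 (148 probe sets), with array weights 5 (532) and with the replicate number as a block 3 (465). With all 12 arrays and no block limma gave 1 member and 260 probe sets (1.90%). It was the member of rank 6, whose signal was 54.0 to 110 in silwet (median 77.0) and 41.8 to 81.3 in SA (median 59.0), lower by 0.41 log2 units in SA (SE 0.19, limma unadjusted p = 0.0472, adjusted p = 1). The treatments overlapped for it. In the high arrays it had read 1392, 1066 and 1196, the first being a silwet array.

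Members leaned slightly lower in SA, with 116 estimates below 0 and 34 above, while 47.4% of all tested probe sets were above 0. Their median was -0.12 against -0.01, in a range of -0.67 to 0.48, with a median SE of 0.25 for 1 member. With single arrays left out the median ran from -0.04 without array 31 (64 above 0) to -0.18 without array 32 (28 above 0). It was -0.18 without array 33, and -0.08 without array 22 with 53 above 0. Without replicate 1 it was 0.07 with 92 above 0, without replicate 2 it was -0.21 and without replicate 3 it was -0.26 with 23 above 0. These counts include the 19 members that passed the filter only through the arrays of the choice. With the filter on the mean over the 12 arrays, 131 members remained. Of these, 30 were above 0, and their median was -0.13.

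The serial runs were compared next, 25 to 27 and 34 to 36 against 22 to 24 and 31 to 33, since the choosing arrays all came from the remaining runs. Limma called 0 probe sets (0%) and 0 members. With the replicate number as a block it called 1 probe set (smallest limma adjusted p = 0.0126), which was no member. At an unadjusted p under 0.05 it gave 15 members, 13 of them lower in the run with higher serials, and 731 probe sets (5.35%). This count of members moved both ways with the setting. The 15 became 30 without array 31 (728 probe sets), 32 without replicate 1 (893), 24 with array weights (1153) and 22 with the block (1234). They fell to 10 without array 23, to 11 without array 33 or replicate 3, and to 12 without array 27. With the 60th percentile filter the count was 7 of 84 members. AT3G13610 had the smallest p. It read 85.5, 57.2 and 53.2 in arrays 22 to 24 and 45.5, 52.9 and 69.4 in arrays 31 to 33, against 38.5, 39.4 and 29.0 in arrays 25 to 27 and 39.6, 20.1 and 32.7 in arrays 34 to 36. The 2 sets of 6 arrays did not overlap, and the difference was -0.87 (SE 0.20, limma unadjusted p = 0.000719, adjusted p = 0.876).

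The other members with the smallest p in this comparison had no gene name. That of rank 17 differed by -1.22 (SE 0.33), that of rank 55 by -0.59 (SE 0.17) and that of rank 128 by -1.04 (SE 0.34), each with a limma adjusted p of 0.876. AT4G32870 went the other way, at 0.43 (SE 0.15, limma adjusted p = 0.876). Over all members 110 estimates were below 0 and 40 above, with a median of -0.19 against -0.01 for all tested probe sets, of which 46.9% were above 0. With the filter on the mean over the 12 arrays, 37 of 131 members were above 0, with a median of -0.19.

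The SA difference in the one run was also set against that in the other. Limma called 0 members and 0 probe sets (0%) for this interaction, and gave 5 members and 238 probe sets (1.74%) at an unadjusted p under 0.05. With the replicate number as a block it called 2 probe sets (smallest limma adjusted p = 0.00818), neither of them a member. The 5 became 0 without array 22, 1 without array 27 or 31, 2 without 36, 3 without 34 or 35, 9 without 32 and 10 without 26. The one with the smallest p was the member of rank 5, whose SA difference was higher by 1.38 in the run with higher serials (SE 0.59, limma adjusted p = 1). In AT2G44010 it was higher by 1.32 (SE 0.57), in AT1G57650 by 0.79 (SE 0.34) and in AT5G08240 by 0.81 (SE 0.37), with the same limma adjusted p. Estimates were above 0 in 112 members, against 43.9% of all tested probe sets, with a median of 0.18 against -0.04. Without replicate 1 that median was -0.05 with 67 above 0, and without replicate 2 it was 0.37. With single arrays left out it ran from 0.015 without array 31 to 0.30 without array 24, and it was 0.079 without array 22 with 83 above 0. With the filter on the mean over the 12 arrays, 101 of 131 members were above 0, with a median of 0.19.

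The replicate numbers were compared last. Limma's F-test over the 3 numbers, 4 arrays each, called 14 of 150 members (9.33%) and 779 of all tested probe sets (5.70%). At an unadjusted p under 0.05 it gave 43 members (28.7%) against 25.2%, and 136 of the 150 members were not called. Of the 14, replicate 1 was the lowest in 9, the highest in 4 and between the others in 1. Of the 779 it was lowest in 377 and highest in 379. Over all 150 members replicate 1 was lowest in 64 and highest in 57, against 42.6% and 40.2% of the tested probe sets.

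Among the named genes, AT5G46230 was higher in replicate 1 with a mean log2 signal of 6.65 ± 0.56 (SD, n = 4), against 5.56 ± 0.11 in replicate 2 and 5.27 ± 0.29 in replicate 3 (limma adjusted p = 0.0123). Its 4 arrays of replicate 1 read 147, 103, 58.7 and 114, all above the other 8. AT5G38710, the proline dehydrogenase, was lower in replicate 1, at 3.93 ± 1.01 (SD, n = 4) against 5.40 ± 0.12 and 5.07 ± 0.48 (limma adjusted p = 0.0400). Its replicate 1 arrays read 39.7, 16.4, 9.84 and 8.37, so array 22 lay among the other replicates while the other 3 were below all of them. AT5G44570 was also lowest in replicate 1, at 6.30 ± 0.34 against 7.93 ± 0.70 and 7.41 ± 0.70 (limma adjusted p = 0.0436), and so were AT1G52950 (limma adjusted p = 0.0444) and AT4G19370 (limma adjusted p = 0.0499).

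Of the probe sets without a gene name, the member of rank 123 had the smallest p and was highest in replicate 1, at 6.96 ± 0.31 (SD, n = 4) against 5.58 ± 0.30 and 5.65 ± 0.31 (limma adjusted p = 0.00510). The member of rank 100 was lowest there, at 5.42 ± 0.53 against 7.08 ± 0.27 and 6.73 ± 0.64 (limma adjusted p = 0.00879), as were those of rank 144 (limma adjusted p = 0.00948) and rank 106 (limma adjusted p = 0.0123). The member of rank 7 was instead highest in replicate 2, at 7.33 ± 0.54 against 5.78 ± 1.12 and 5.70 ± 0.62 (limma adjusted p = 0.0408). The count of 14 called members depended on single arrays. It was 2 without array 25, 6 without 26, 7 without 27, 8 without 34, and 9 without 22, 23 or 36. It was 10 without array 33, 11 without 24, 13 without 31 or 35, and 19 without 32. Without all of replicate 1 it was 0, without replicate 2 it was 11 and without replicate 3 it was 7. With the filter on the mean over the 12 arrays it was 14 of 131 members, against 795 of 13699 probe sets.

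**Figure D4:**
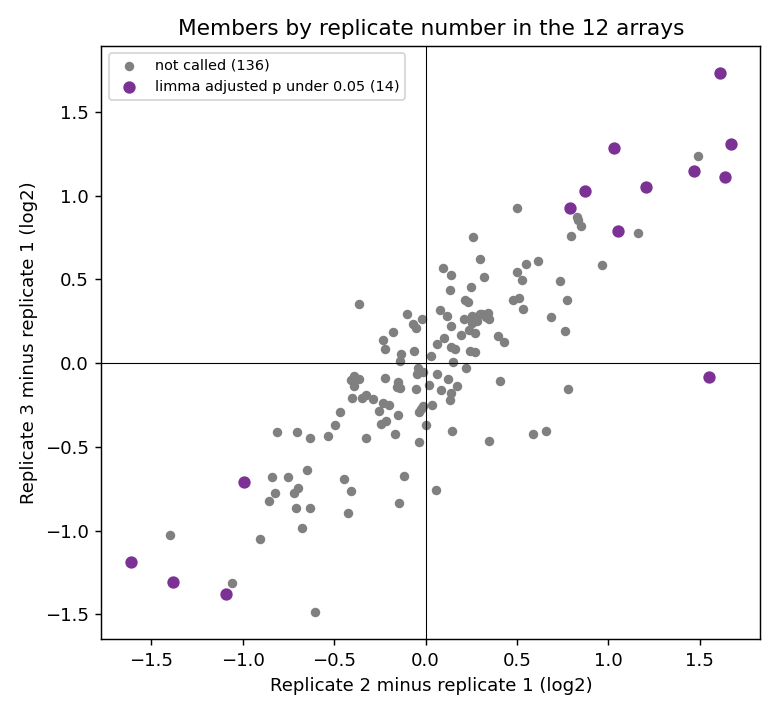
Difference of replicate 2 from replicate 1 (horizontal, log2) and of replicate 3 from replicate 1 (vertical, log2) in the 12 arrays outside the choice, 1 point per member. The 14 members called by limma's F-test are coloured, 9 of them above 0 on both axes, 4 below 0 on both and 1 far right near the horizontal axis.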

How the data were processed

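The values are MAS5 intensity, as deposited by the authors in a single table. MAS5 is named in the submitters' processing notes, with its version and settings not given in the sources used here. Each array's 2% trimmed mean was 100.01, so the intensity values were taken as already scaled. Log2 was taken with no pseudocount, after removal of 64 control probe sets. The filter was a mean log2 signal over the 18 arrays of at least 4.31 (a signal of 19.8), the 40th percentile. Depth does not apply to arrays, and their number limits the precision.

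The members, the gene lists and the tests were chosen with earlier results of these data known. Arrays 19 to 21 and 28 to 30 chose the members, so that contrast has no test. In the other 12 arrays, limma 3.58.1 (R 4.3.3) was fitted to the log2 values (lmFit, then eBayes with a trend on intensity) of all 13657 probe sets, with 1 mean for each treatment and serial run. An F-test added the replicate number, which the other tests left in their spread. Calls were made at an adjusted p (Benjamini-Hochberg over all probe sets) under 0.05.

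Named genes were the 24 highest members with 1 gene, up to 4 members per list, the 4 smallest p of each of 4 tests, the 4 largest SDs, the 3 probe sets on each side of the limit and the 6 closest to the members' median. Members without a gene name are given by rank. Families with product terms were searched among gene synonyms. Promoter motifs were not analysed here. No column lacked a sample. The alternatives were a pseudocount of 8, other filters, array weights, eBayes without the trend, median centring, quantile normalization, a replicate block and leaving out replicate numbers. Leaving out single arrays was added after seeing the data.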

Additional observations from a re-analysis of the deposited data

Results flagged for a closer look

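In the 47 members named by the rule, each treatment's 6 arrays outside the choice were examined for a single array far from the others, and 8 of 94 groups held one. The 1 in 20 that chance gives in independent groups is no reference here. Some of these members were named for a large SD or a small p in the same arrays, and all share those arrays. The share over all tested probe sets was not computed. The gap to the nearest array, as a share of the group's whole log2 range, had to exceed 0.625.

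In silwet, CXE20 was low in array 27 (gap 0.738), at 3.27 against 15.8 to 27.6. Array 25 was low in AT4G19370 (gap 0.651), at 10.9 against 20.7 to 29.2, and in the proline dehydrogenase gene AT5G38710 (gap 0.698), at 16.4 against 35.4 to 49.4. Array 22 was high in the member of rank 56 (gap 0.657), at 340 against 185 to 228.

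In SA, array 34 was high in AT5G46230 (gap 0.632), at 114 against 39.9 to 58.7, and low in GH3.3 (gap 0.664), at 4.26 against 26.0 to 64.7. Array 36 was high in AT2G39400 (gap 0.635), at 113 against 48.1 to 65.7. Array 31 was low in AT2G37750 (gap 0.635), at 39.2 against 69.1 to 95.8. Of the 6 arrays concerned, 22, 25, 31 and 34 are replicate 1. The flagged signals of CXE20, AT4G19370 and GH3.3 were under 16, where MAS5 values are least precise.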

How the results depend on the processing

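Of the 150 members, 64 remained without a filter and 84 under the 60th percentile filter, and at least 131 under each other planned setting. With a selecting array left out, 122 to 134 remained. SA against silwet called 0 probe sets under every alternative run. The serial runs gave 1 call with array weights and 1 with the replicate block, and their interaction gave 1 with median centring, 1 with array weights and 2 with the replicate block. No member was called in these 3 tests, and with the replicate block SA against silwet kept 0 calls. Deviations of same-numbered samples correlated at 0.03 to 0.66 between groups, and each of the 12 arrays correlated best with its own replicate number. The main fits of these 3 tests did not take the numbers to pair the samples, so differences between replicate numbers stayed in their spread. At an unadjusted limma p under 0.05, SA against silwet gave 465 probe sets with the block and 260 without. The serial runs gave 1234 against 731, and the interaction also gave more. The main SEs and p-values can therefore be too large, and 0 calls there do not show that no difference exists. An unexplained number in the titles also lies apart for each replicate number, and no label calls it a batch. The F-test over replicate numbers called 421 probe sets with the 60th percentile filter and 1231 with array weights, 7 to 404 without a replicate number, and 124 to 711 without a single array. Called members numbered 8 without a filter, 7 with the 60th percentile filter, 25 with array weights, and 0 to 19 with arrays or a replicate number left out. In the member of rank 7, the mean of replicates 2 and 3 minus replicate 1 was 0.73, and it became -0.082 without replicate 2, the number in which it was highest, and 1.55 without replicate 3. The cause of these changes was not tested. Low signals are the least precise, and 19 members lay under the filter's threshold in the 12 arrays.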

Other observations

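The 60 placed members lay on all 5 chromosomes, with 10, 8, 14, 12 and 16 on chromosomes 1 to 5. That is 16.7%, 13.3%, 23.3%, 20.0% and 26.7%, against 26.0%, 14.4%, 20.4%, 14.4% and 23.9% of the placed tested genes, a difference that was not tested. In 3 cases members were near neighbours, with at most 10 protein-coding genes between them. How many such cases other tested genes of the same number would hold was not counted. AT3G60420 and AT3G60450, both of the phosphoglycerate mutase-like family, had 1 gene between them. AT3G47480 and the chitinase family gene AT3G47540 had 5 between them, and so did AT3G48020 and the EDS1-type gene AT3G48080. AT3G60420 had signals of 1859, 1718 and 1925 in the high arrays, and its next highest value was 804, in array 21. AT3G60450 read 494, 449.4 and 379 and at most 158 elsewhere. The sequences of shared family members can resemble each other, and cross-hybridisation between them was not tested.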
